A study of Homo sapiens with 8 samples.

Results

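The ARMCX and GPRASP genes are a family of armadillo-repeat genes that lie close together on the long arm of the X chromosome. The 8 members examined were ARMCX1, ARMCX2, ARMCX3, ARMCX5, ARMCX6, GPRASP1, GPRASP2 and BHLHB9, which is also called GPRASP3, out of 25369 named genes in the count table. The members were selected on the line difference of ARMCX2 in DMSO. Among genes ordered from the highest in BRCA1-null cells, its fitted log2 fold change had rank 1 of 10525 genes with a mean of at least 3 log2 CPM. It had rank 2 of all 17714 genes tested. By absolute value, with genes lower in BRCA1-null cells included, the ranks were 2 and 3. The line difference of the members in DMSO, and that of ARMCX2 in entinostat, are therefore given as a description, without a test. The tests given concern, for the other 7 members, the line difference in entinostat, in other libraries of the same lines, and for all members the response to entinostat.

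Poly(A) RNA was sequenced from UWB1.289, a human ovarian cancer line whose mutated BRCA1 encodes a truncated protein, and from its derivative transduced with BRCA1. The first is called BRCA1-null and the second, a single derived line, BRCA1+. Cultures of both received 0.5 uM entinostat, an inhibitor of HDAC1 and HDAC3, or the DMSO vehicle (control) for 24 h. The 4 groups, BRCA1+ control, BRCA1+ entinostat, BRCA1-null control and BRCA1-null entinostat, held 2 libraries each. Nothing states that replicates came from separate cultures, so p-values measure the spread between these samples, which may be technical.

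ARMCX proteins carry armadillo repeats, and ARMCX1, ARMCX2 and ARMCX3 are anchored in the outer mitochondrial membrane. ARMCX1 and ARMCX3 are best known in neurons, where they act with the Miro and TRAK adaptors that couple mitochondria to kinesin motors. GPRASP1, GPRASP2 and BHLHB9 are related proteins that bind the tails of G protein-coupled receptors, and GPRASP1 sorts internalised receptors to lysosomes. The family is thought to descend from ARMC10, an autosomal gene, by retroposition of a processed copy onto X followed by duplication, and ARMCX1 was first named for its loss in epithelial cancers.

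On hg19 the members covered 1202 kb of chromosome X. ARMCX1 lay at chrX:100805514-100809675 on the plus strand, ARMCX6 at chrX:100870108-100872991 on the minus strand, ARMCX3 at chrX:100878120-100882831 on the plus strand and ARMCX2 at chrX:100910268-100914876 on the minus strand. ARMCX5 (chrX:101854096-101859085), GPRASP1 (chrX:101906294-101914010), GPRASP2 (chrX:101967104-101972661) and BHLHB9 (chrX:101975642-102007369) formed a second cluster, all on the plus strand. In the GENCODE annotation each member had 3 to 6 exons, of which 1 held the whole coding sequence, whereas all 7 exons of ARMC10 were coding. In the spans listed with the counts, the readthrough gene ARMCX5-GPRASP2 overlaps ARMCX5, GPRASP1 and GPRASP2 on the same strand. GENCODE places it at chrX:101967423-102008458, where it overlaps GPRASP2 and BHLHB9, and lists an antisense RNA that overlaps ARMCX3. How the counting handled strand and shared reads is not given in the sources used here. The counts of ARMCX3, ARMCX5, GPRASP1, GPRASP2, BHLHB9 and the readthrough gene are uncertain to that extent.

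Promoter windows of 300 bases, 250 before and 50 after the annotated start, were taken from RefSeq on GRCh38.p14 for 7 of the 8 members, without ARMCX3 and with 2 windows for BHLHB9. The windows of ARMCX2, which was at the detection floor in 1 line, and of its neighbours ARMCX1 and ARMCX6, which were expressed in both lines, are shown to compare them. They lie at chrX:101659801-101660100 (minus strand), chrX:101550297-101550596 (plus) and chrX:101617951-101618250 (minus). Capitals mark CACGTG, the E-box hexamer.
ARMCX2: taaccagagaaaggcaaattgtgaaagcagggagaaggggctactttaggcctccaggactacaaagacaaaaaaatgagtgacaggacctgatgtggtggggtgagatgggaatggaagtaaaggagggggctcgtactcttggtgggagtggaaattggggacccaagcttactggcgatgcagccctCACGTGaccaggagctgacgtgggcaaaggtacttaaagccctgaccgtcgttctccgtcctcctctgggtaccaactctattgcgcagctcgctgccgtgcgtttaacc
ARMCX1: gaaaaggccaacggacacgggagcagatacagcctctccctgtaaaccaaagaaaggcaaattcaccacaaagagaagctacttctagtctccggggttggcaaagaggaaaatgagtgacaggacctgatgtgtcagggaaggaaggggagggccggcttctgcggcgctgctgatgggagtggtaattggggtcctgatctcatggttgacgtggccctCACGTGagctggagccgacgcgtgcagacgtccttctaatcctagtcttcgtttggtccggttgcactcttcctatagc
ARMCX6: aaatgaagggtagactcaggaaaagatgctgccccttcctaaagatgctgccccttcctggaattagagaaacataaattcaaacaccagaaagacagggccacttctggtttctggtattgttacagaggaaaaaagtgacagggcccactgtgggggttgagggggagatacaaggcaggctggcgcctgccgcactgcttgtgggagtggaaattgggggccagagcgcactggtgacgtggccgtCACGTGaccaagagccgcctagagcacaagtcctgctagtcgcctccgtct

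CACGTG was present in the windows of 4 of the 7 members, ARMCX1, ARMCX2, ARMCX6 and BHLHB9, and in 7.20% of all 34796 distinct windows. Its first base lay 29, 60, 1 and 68 bases before the annotated start, respectively. ARMCX1 and ARMCX2 shared a run of 25 bases, aaaatgagtgacaggacctgatgtg, that occurred in 2 windows of all 34796. ARMCX2 and ARMCX6 likewise shared 19 bases, gtgggagtggaaattgggg, found in 2 windows. Over the whole window the identity in a global alignment was 51.2% between ARMCX1 and ARMCX2, 58.2% between ARMCX1 and ARMCX6, and 45.5% between ARMCX2 and ARMCX6. CCAAT was found in ARMCX1, ARMCX2, ARMCX5 and ARMCX6 and in 34.6% of all windows, so neither this box nor the E-box was peculiar to the gene at the floor.

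A different run of bases was shared by windows of the GPRASP group. Those of GPRASP1 at chrX:102651233-102651532, GPRASP2 at chrX:102712198-102712497 and the second of BHLHB9 at chrX:102745729-102746028, all on the plus strand, are shown because capitals mark a run of 48 bases common to them that occurred in 3 windows of all.
GPRASP1: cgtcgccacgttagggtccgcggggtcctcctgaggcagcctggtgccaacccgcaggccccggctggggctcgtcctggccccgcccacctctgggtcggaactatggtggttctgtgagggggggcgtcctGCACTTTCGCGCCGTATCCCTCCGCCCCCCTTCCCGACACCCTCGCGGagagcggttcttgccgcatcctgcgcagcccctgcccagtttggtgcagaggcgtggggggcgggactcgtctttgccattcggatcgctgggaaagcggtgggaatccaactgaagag
GPRASP2: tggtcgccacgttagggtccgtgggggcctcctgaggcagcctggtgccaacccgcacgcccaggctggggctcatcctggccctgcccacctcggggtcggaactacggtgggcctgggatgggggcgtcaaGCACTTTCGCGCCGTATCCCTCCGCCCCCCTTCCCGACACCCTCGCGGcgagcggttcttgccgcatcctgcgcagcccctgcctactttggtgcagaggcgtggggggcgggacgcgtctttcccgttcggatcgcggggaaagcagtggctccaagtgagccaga
BHLHB9: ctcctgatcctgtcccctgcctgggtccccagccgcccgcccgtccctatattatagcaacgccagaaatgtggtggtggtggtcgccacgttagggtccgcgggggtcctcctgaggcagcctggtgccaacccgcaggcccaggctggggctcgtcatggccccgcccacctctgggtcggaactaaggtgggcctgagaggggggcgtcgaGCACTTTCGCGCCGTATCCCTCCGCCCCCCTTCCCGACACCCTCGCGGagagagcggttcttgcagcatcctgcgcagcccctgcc

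GPRASP1 and GPRASP2 were 89.1% identical over the window. The number of CpG dinucleotides was 27 in GPRASP1, 28 in GPRASP2 and 23 in this window of BHLHB9, whose first window, at chrX:102720493-102720792 on the plus strand, held 12, against 9 in ARMCX6, 11 in ARMCX2, 14 in ARMCX1 and 20 in ARMCX5 and a median of 14 over all windows. The GC box GGGCGG was found in GPRASP1, GPRASP2 and the second window of BHLHB9, not in its first window, which held the CACGTG, and in 44.9% of all windows. The cyclic AMP response element TGACGTCA (1.84% of windows), the ETS motif CCGGAAG (10.2%) and TATAAA (11.6%) were in none of the members' windows. Every motif was searched on both strands by its exact letters, CCAAT and GGGCGG without regard to overlap with other motifs. These matches describe the annotated windows, and which start sites the cells used was not measured.

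The libraries held 31900158 to 53549893 counts. As a floor, 3 counts were used, up to which a true value may lie where 0 is seen, or 0.0552 to 0.0946 CPM (counts scaled to a TMM-normalised library of 1000000). Intervals and floors cover counting error only. BRCA1 itself was at 98.9 and 92.4 CPM in BRCA1+ cells with DMSO and 133 and 118 with entinostat, against 21.0 and 22.4 (DMSO) and 17.6 and 19.2 (entinostat) in BRCA1-null cells, so the levels followed the labels. Of the 9 ovarian serous carcinoma markers, 8 reached 1 CPM in each group, with a summed level of 13674 to 17825 CPM, and WT1 was the one that did not.

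Markers of other cell types were low but moved with the groups. The summed level of 6 fibroblast markers was 13.5 to 18.2 CPM in BRCA1+ control, 26.6 to 35.2 in BRCA1+ entinostat, 39.3 to 55.9 in BRCA1-null control and 58.2 to 83.7 in BRCA1-null entinostat, with DCN and LUM at 0 throughout. The 4 endothelial markers summed to 9.48 to 16.2, 27.3 to 38.3, 36.6 to 54.3 and 75.1 to 92.9 CPM, and the 5 leukocyte markers to 13.9 to 14.0, 18.8 to 20.4, 26.7 to 27.3 and 29.6 to 37.3 CPM, in the same order. The 6 neuronal markers, of interest because the family is best known in neurons, summed to 72.3 to 81.4, 92.7 to 92.9, 90.6 to 105 and 75.5 to 89.1 CPM. The part of these in the family's values was not tested, and in bulk RNA fewer expressing cells and less RNA per cell cannot be told apart.

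ARMCX2, the mitochondrial member around which the family was chosen, was switched between the lines. It had 2 and 1 counts in BRCA1+ control and 0 and 3 counts in BRCA1+ entinostat, all at or under the floor. The BRCA1-null libraries held 673 and 795 counts (14.8 and 14.6 CPM) in DMSO and 1313 and 1075 counts (28.0 and 25.7 CPM) in entinostat. The libraries of the lines did not overlap, and the lowest BRCA1-null library lay far above every BRCA1+ library. With 1468 counts in the BRCA1-null and 3 in the BRCA1+ control libraries, the ratio per normalised library size was 421 (95% exact binomial interval 144 to 2043). In entinostat, with 2388 and 3 counts, it was 701 (240 to 3403). These intervals are wide because they rest on 3 counts. With 1 library left out, the ratio in DMSO ran from 294 (without BRCA1+ control replicate 2) to 675 (without BRCA1+ control replicate 1). In entinostat, where a ratio could be given, it ran from 417 (without BRCA1+ entinostat replicate 1) to 729 (without BRCA1-null entinostat replicate 2).

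No other member was switched in this way: all 7 were detected in both lines above the floor in all 8 libraries. ARMCX1, the other outer-membrane protein with a sizeable difference, had 163 and 163 counts in BRCA1+ control against 603 and 727 in BRCA1-null control, or 3.81 ± 0.372 and 13.3 ± 0.0867 CPM (SD, n = 2). In entinostat it had 255 and 300 counts against 847 and 738, or 7.25 ± 1.11 and 17.9 ± 0.279 CPM. Every BRCA1-null library lay above every BRCA1+ library. The log2 fold change between the lines was 1.81 ± 0.134 (SE) in DMSO and 1.32 ± 0.120 in entinostat (adjusted p = 4.23e-05, edgeR quasi-likelihood test with Benjamini-Hochberg adjustment).

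ARMCX3, the adaptor of mitochondrial transport, and ARMCX6 were the most abundant members and differed moderately. ARMCX3 was at 26.5 and 25.3 CPM in BRCA1+ cells with DMSO and 26.6 and 28.1 with entinostat, against 41.3 and 37.6 (DMSO) and 40.4 and 40.5 (entinostat) in BRCA1-null cells. ARMCX6 was at 21.3 and 23.3, 18.4 and 21.9, 35.6 and 34.5, and 36.1 and 33.1 CPM in the same order. The lines were separate for both genes in either medium. The line difference was 0.61 ± 0.0763 in DMSO and 0.56 ± 0.0770 in entinostat (adjusted p = 0.000435, edgeR) for ARMCX3, on the log2 scale. For ARMCX6 it was 0.65 ± 0.0966 and 0.77 ± 0.0994 (adjusted p = 0.000313).

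ARMCX5, which opens the second cluster, was at 8.80 and 10.1 CPM in BRCA1+ cells with DMSO and 7.44 and 10.1 with entinostat, against 13.2 and 13.2 (DMSO) and 14.5 and 15.8 (entinostat) in BRCA1-null cells. Its log2 fold change between the lines was 0.47 ± 0.138 in DMSO and 0.76 ± 0.141 in entinostat (adjusted p = 0.00235, edgeR). The spread within BRCA1+ entinostat was wide, and the value in entinostat ran from 0.57 to 1.02 with 1 library left out.

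Of the receptor-sorting members, GPRASP1 was the scarcest gene apart from ARMCX2. It had 18 and 26 counts in BRCA1+ cells with DMSO and 21 and 25 with entinostat, against 63 and 73 (DMSO) and 38 and 48 (entinostat) in BRCA1-null cells. The lines were separate in both media, with log2 fold changes of 1.41 ± 0.291 in DMSO and 0.72 ± 0.319 in entinostat, and the second did not pass the test (adjusted p = 0.106, edgeR). At these counts 1 library decided its size, which was 0.46 without BRCA1-null entinostat replicate 2 and 0.96 without BRCA1-null entinostat replicate 1. GPRASP2 had 100 and 142, 155 and 213, 220 and 272, and 283 and 302 counts in the same order of groups. Its BRCA1-null libraries lay above the BRCA1+ libraries of the same medium, by 0.81 ± 0.171 in DMSO and 0.49 ± 0.153 in entinostat on the log2 scale (adjusted p = 0.0315, edgeR). That call was lost without BRCA1+ entinostat replicate 1 (adjusted p = 0.0887), without BRCA1+ entinostat replicate 2 (0.187), without BRCA1-null entinostat replicate 2 (0.170), in thinned counts (0.0594), by DESeq2 (0.0943) and with an added unadjusted p under 0.01.

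BHLHB9, also of the GPRASP group, differed least. It was at 5.38 and 5.49 CPM in BRCA1+ cells with DMSO and 5.05 and 5.45 with entinostat, against 6.15 and 6.44 (DMSO) and 7.23 and 6.44 (entinostat) in BRCA1-null cells. The lines did not overlap, and the log2 fold change was 0.21 ± 0.126 in DMSO and 0.38 ± 0.130 in entinostat. The value in entinostat passed the test in the fit of all libraries (adjusted p = 0.0458, edgeR) but in 3 of 17 alternatives, and it was lost whichever of the 8 libraries was left out (adjusted p 0.0564 to 0.222).

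**Figure D1:**
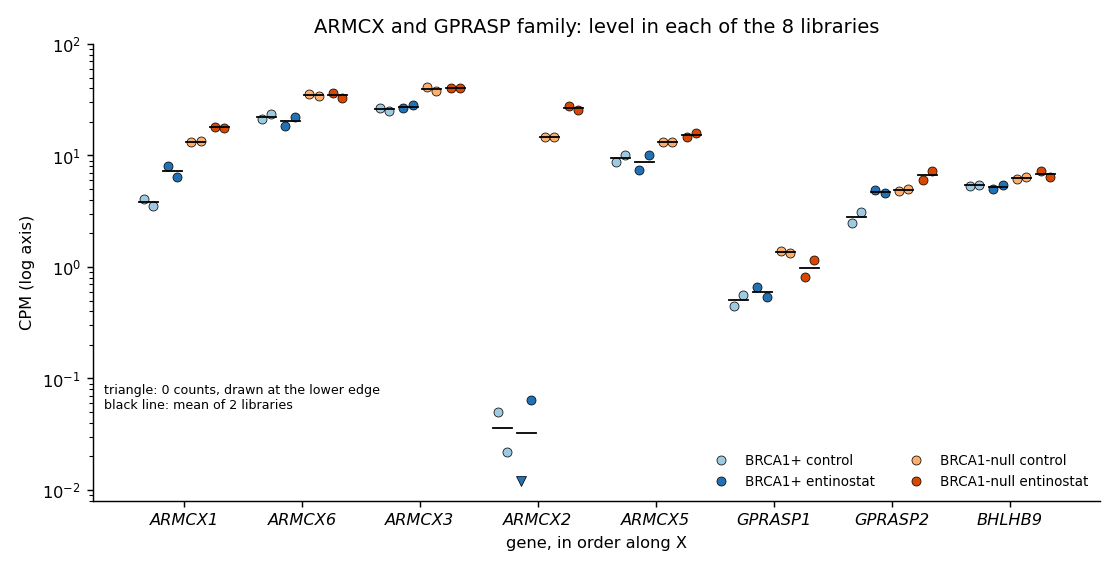
Level of each family member in the 8 libraries, in CPM on a log axis, with genes in their order along X, colours for the 4 groups and a black line for the mean of 2 libraries. ARMCX2 is at or under 3 counts in the 4 BRCA1+ libraries (the library with 0 counts is a triangle at the lower edge), while the other 7 genes are present in all 8, with the BRCA1-null points above the BRCA1+ points of the same medium.

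Counted together, 8 of 8 members had higher levels in BRCA1-null than in BRCA1+ libraries without overlap in DMSO, where this held for 36.0% of all genes tested, and 7 of 8 had an adjusted p under 0.05 in that direction, against 21.1% of genes (42.2% in either direction). The rule used this contrast, so nothing is read from these counts. In entinostat 8 of 8 members were higher without overlap, against 36.3% of genes. There 6 of the 7 members other than ARMCX2 passed the test as higher, against 20.5% of genes (39.4% in either direction), and DESeq2 called 4 of them. The median log2 fold change of the members was 0.73 in DMSO and 0.74 in entinostat, also with ARMCX2 at its ratio of counts, and 0.65 and 0.72 without ARMCX2, beside 0.01 and 0.02 over all genes.

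In sum over the family, the 8 genes gave 69.0 and 71.4 CPM in BRCA1+ cells with DMSO and 71.1 and 77.2 with entinostat, against 130 and 126 (DMSO) and 151 and 148 (entinostat) in BRCA1-null cells. ARMCX2 made up 11.3% and 11.6% of the sum in BRCA1-null control, 18.5% and 17.4% in BRCA1-null entinostat and at most 0.0837% in any BRCA1+ library. Without ARMCX2 the sum was 68.9 to 77.2 CPM in BRCA1+ cells and 111 to 123 CPM in BRCA1-null cells, so the other 7 genes together still separated the lines.

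The order of the members by level per length changed where ARMCX2 was expressed. In CPM per kb of listed gene length, ARMCX6 (10.4 to 18.1 as group means) and ARMCX3 (7.46 to 11.7) came first in every group. In BRCA1+ control they were followed by ARMCX5 (3.11), ARMCX1 (1.79), BHLHB9 (1.27), GPRASP2 (0.704), GPRASP1 (0.0845) and ARMCX2 (0.0124), with no overlap between neighbours in that order. In BRCA1-null control ARMCX2 had rank 4 at 5.07, between ARMCX1 (6.24) and ARMCX5 (4.33), and in BRCA1-null entinostat it had rank 3 at 9.26, ahead of ARMCX1 at 8.38. ARMCX1 and ARMCX5 overlapped in BRCA1+ entinostat, as did BHLHB9 and GPRASP2, and GPRASP2 and BHLHB9 overlapped in BRCA1-null entinostat.

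Entinostat raised ARMCX1 in both lines. In BRCA1+ cells it rose from 4.08 and 3.55 CPM to 8.04 and 6.47 CPM, a log2 fold change of 0.91 ± 0.152 (adjusted p = 0.00624, edgeR). In BRCA1-null cells it rose from 13.3 and 13.4 CPM to 18.1 and 17.7 CPM, by 0.42 ± 0.105 (adjusted p = 0.0358, edgeR). The treated libraries lay above the controls in both lines, and the treated BRCA1+ libraries remained below the untreated BRCA1-null ones. The call in BRCA1+ cells was lost without BRCA1+ control replicate 2 (adjusted p = 0.05004), and that in BRCA1-null cells without any 1 of the 4 BRCA1-null libraries (adjusted p 0.0994 to 0.150), by DESeq2 (0.0776) and in the fit of only these groups (0.0618).

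ARMCX2 responded where it was already expressed. In BRCA1-null cells it rose from 14.8 and 14.6 CPM to 28.0 and 25.7 CPM, a log2 fold change of 0.87 ± 0.0984 (adjusted p = 0.00104, edgeR), and it passed the test in all 17 alternatives (adjusted p 5.65e-06 to 0.0164). In BRCA1+ cells it went from 2 and 1 counts to 0 and 3 counts, and no library exceeded the floor. No fold is given for that comparison, since a change within the floor could not be detected at this depth. A rise of ARMCX2 above the floor, 0.0946 and 0.0647 CPM in BRCA1+ entinostat replicates 1 and 2, was not seen.

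GPRASP2 rose from 2.50 and 3.09 CPM to 4.89 and 4.59 CPM in BRCA1+ cells, by 0.74 ± 0.180 on the log2 scale (adjusted p = 0.0270, edgeR). That call was lost without any 1 of the 4 BRCA1+ libraries (adjusted p 0.0631 to 0.125). In BRCA1-null cells it was at 4.84 and 5.00 CPM in control and at 6.04 and 7.23 CPM in entinostat, without overlap, and the difference of 0.42 ± 0.145 did not pass the test (adjusted p = 0.0961, edgeR). The readthrough gene ARMCX5-GPRASP2, which shares its sequence, had 169 and 208 counts in BRCA1+ control and 196 and 281 in BRCA1+ entinostat, a log2 difference of 0.48 ± 0.160 (adjusted p = 0.0795). Its difference in BRCA1-null cells was 0.39 ± 0.131 (adjusted p = 0.0942).

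The remaining members did not pass the test for entinostat in either line. ARMCX3 had log2 differences of 0.08 ± 0.0797 (BRCA1+) and 0.04 ± 0.0736 (BRCA1-null), and ARMCX6 of -0.14 ± 0.103 and -0.02 ± 0.0929. ARMCX5 was at -0.09 ± 0.150 and 0.20 ± 0.129, and BHLHB9 at -0.04 ± 0.136 and 0.12 ± 0.121. GPRASP1 was at 0.20 ± 0.372 and -0.49 ± 0.248, the second without overlap between treated and control libraries (adjusted p = 0.241, edgeR) and at -0.75 and -0.24 without BRCA1-null entinostat replicates 2 and 1. For ARMCX3 and ARMCX6, the most deeply counted members with 585 to 2045 counts per library, the standard errors were the smallest.

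Over the family, 2 of 8 members, ARMCX1 and GPRASP2, were called higher with entinostat in BRCA1+ cells, against 8.15% of all genes called higher and 14.1% called in either direction. In BRCA1-null cells 2 of 8, ARMCX1 and ARMCX2, were called higher, against 7.57% and 10.8%, and DESeq2 called 1. The median log2 fold change of the 7 members other than ARMCX2 was 0.08 for BRCA1+ and 0.12 for BRCA1-null cells, beside 0.00 and 0.02 over all genes.

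The responses of the lines were compared by the interaction of line and entinostat. In edgeR 0 of 8 members and 0 of 17714 genes (0%) passed, with 1 member (ARMCX1) and 827 genes at an unadjusted p under 0.05, and DESeq2 called 0 members and 11 genes. ARMCX1 rose less in BRCA1-null than in BRCA1+ cells by 0.49 ± 0.185 on the log2 scale as fitted, which did not pass (adjusted p = 0.967, edgeR). For ARMCX2 the floor in BRCA1+ cells left no response to compare with.

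**Figure D2:**
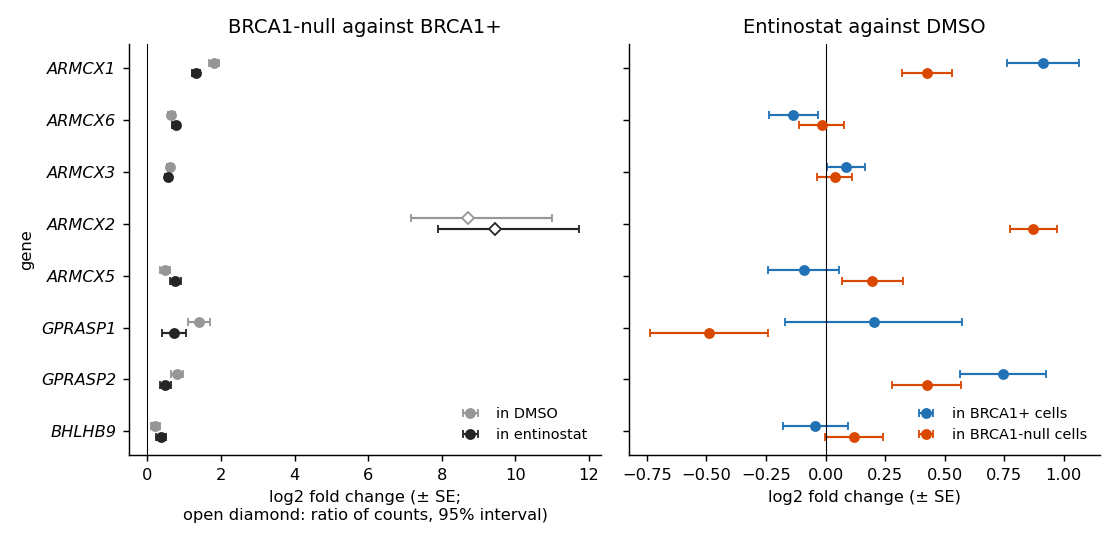
Log2 fold changes of the members, with SE as horizontal bars: BRCA1-null against BRCA1+ in each medium (left) and entinostat against DMSO in each line (right). Open diamonds are the log2 ratios of counts of ARMCX2, 8.72 and 9.45, with 95% counting intervals as bars, and no value is drawn for ARMCX2 in BRCA1+ cells, where it was at the floor; only ARMCX1, ARMCX2 and GPRASP2 reach 0.42 or more on the right.

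The question of whether entinostat restores a silent gene could be asked of ARMCX2 alone among the members, and beside it of the other genes with the same pattern. At most 3 counts in each BRCA1+ control library, with a mean of at least 1 CPM in BRCA1-null control, were found for 20 genes, of which ARMCX2 was the only one on X. With entinostat 13 of them stayed at or under the floor in both BRCA1+ libraries, 6 exceeded it in 1 library and 1 in both, and none reached a mean of 1 CPM. With a floor of 10 counts there were 73 such genes, of which 4 reached 1 CPM. Both sets were chosen for low counts in these control libraries, so no test is given for them. No member was silent in BRCA1-null control and expressed in BRCA1+ control, a pattern shown by 10 genes.

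The relatives outside the 8 members were also higher in BRCA1-null cells. ARMCX4, next to ARMCX1, had 185 and 169 counts in BRCA1+ cells with DMSO and 102 and 171 with entinostat, against 492 and 631 (DMSO) and 472 and 518 (entinostat) in BRCA1-null cells. The lines were separate, and the log2 fold change was 1.44 ± 0.158 in DMSO and 1.68 ± 0.169 in entinostat (adjusted p = 7.56e-05, edgeR). ARMC10, the autosomal relative on chromosome 7, differed by 0.27 ± 0.0801 and 0.27 ± 0.0829 (adjusted p = 0.0269 in entinostat), and ARMCX5-GPRASP2 by 0.70 ± 0.150 and 0.61 ± 0.140 (adjusted p = 0.00757). With entinostat 0 of the 3 relatives were called by edgeR or DESeq2 in either line, with 2 at an unadjusted p under 0.05 in each. Of all genes edgeR called 14.1% in BRCA1+ and 10.8% in BRCA1-null cells, so nothing is read from 0 of 3.

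The members' neighbours on X were shifted in the same direction. In the segment from 1000000 bases before ARMCX1 to 1000000 bases after BHLHB9, chrX:99805514-103007369 on hg19, 58 genes were listed and 41 tested. Of the 33 tested genes that are no members, all 33 had positive log2 fold changes between the lines in both media. In DMSO edgeR called 26 higher, against 21.1% of all genes, and in entinostat 24 (72.7%), against 20.5%. DESeq2 called 22 and 21 of the 33. The median of the 33 was 0.72 in DMSO and 0.70 in entinostat, close to the members' 0.65 and 0.72 without ARMCX2. Elsewhere on X 565 genes were tested, with medians of 0.11 and 0.10. Of these, edgeR called 139 higher and 82 lower in DMSO and 144 and 75 in entinostat.

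Among these neighbours were the BEX and TCEAL genes, a family of small adaptor and elongation factor-like proteins. Of 14 listed, 11 were tested, and edgeR called 10 higher in BRCA1-null cells in each medium, with medians of 0.73 and 0.74. Of all genes 21.1% were called higher in DMSO and 20.5% in entinostat. DESeq2 called 10 of the 11 in DMSO and 8 in entinostat. BEX1 had 11 and 21 counts in BRCA1+ control against 74 and 96 in BRCA1-null control, and differed by 1.91 ± 0.266 in entinostat (adjusted p = 0.000483, edgeR). It was also the one gene of this list called with entinostat, in BRCA1-null cells, where it had 217 and 134 treated counts (1.21 ± 0.225, adjusted p = 0.0127). In BRCA1+ cells 0 of 11 were called by edgeR, with 5 at an unadjusted p under 0.05, and DESeq2 called 2. Of all genes edgeR called 14.1% with entinostat in BRCA1+ and 10.8% in BRCA1-null cells. All 11 had positive log2 changes with entinostat in both lines, with a median of 0.29 in each, beside 0.00 and 0.02 over all genes.

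The shift was not limited to these families. Of the 20 tested genes in the segment that belong to neither, edgeR called 12 higher in entinostat, against 20.5% of all genes, and DESeq2 called 11. The readthrough gene RPL36A-HNRNPH2 overlaps RPL36A and HNRNPH2 on the same strand and may share their reads. All of these were called, and they are counted as separate genes here and among the 33 neighbours. The median of the 20 was 0.69 in either medium. ZMAT1, which lies beyond ARMCX2, had 45 and 45 counts in BRCA1+ control against 174 and 211 in BRCA1-null control and differed by 1.85 ± 0.205 in entinostat (adjusted p = 0.000127, edgeR). TRMT2B, a tRNA methyltransferase gene, differed by 1.04 ± 0.103 (adjusted p = 6.87e-05). With entinostat SRPX2, a scarce gene, rose in both lines. It had 9 and 6 counts in BRCA1+ control against 16 and 35 in BRCA1+ entinostat, a log2 change of 1.88 ± 0.462. In BRCA1-null cells it had 16 and 26 control counts against 64 and 59 treated counts, a log2 change of 1.72 ± 0.294. TRMT2B instead fell by 0.39 on the log2 scale in BRCA1-null cells. In BRCA1+ cells it fell by 0.33 ± 0.107, which did not pass the test (adjusted p = 0.0732, edgeR). Of the 33 neighbours, edgeR called 2 with entinostat in BRCA1+ cells (6.06%), against 14.1% of all genes. In BRCA1-null cells edgeR called 4 (12.1%), against 10.8%. What these neighbouring genes share beside their position was not tested.

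**Figure D3:**
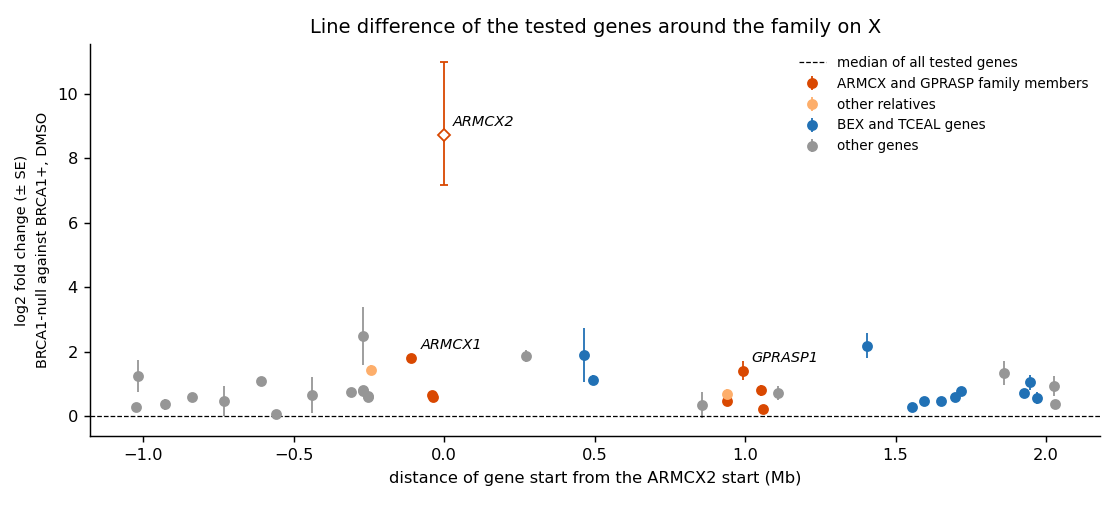
Log2 fold change of BRCA1-null against BRCA1+ cells in DMSO, with SE as vertical bars, for the 41 tested genes of the segment, by the distance of the gene's start from that of ARMCX2 in Mb. All 41 values are above 0, with the median of all tested genes (0.01) dashed, and the open diamond is the log2 ratio of counts of ARMCX2, 8.72, with its 95% counting interval.

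The transport machinery with which ARMCX proteins act was looked at beside them. Of 15 genes of mitochondrial transport and dynamics, 14 were tested, and 1 was called higher and 4 lower in BRCA1-null than in BRCA1+ cells in entinostat, or 35.7% called against 39.4% of all genes. The adaptor TRAK1 was lower in BRCA1-null cells, with a log2 fold change of -1.10 ± 0.0635 in entinostat (adjusted p = 4.17e-06, edgeR), as was KIF5C, a kinesin heavy chain, at -1.64 ± 0.159. The gene called higher was the fission factor FIS1 (0.35 ± 0.0805), named here after its value was seen. With entinostat 5 were called higher and 2 lower in BRCA1+ cells, and 4 higher and 1 lower in BRCA1-null cells (7 of 14 against 14.1% of all genes, and 35.7% against 10.8%). KIF5C rose from 80 and 99 counts to 527 and 780 in BRCA1+ cells and from 41 and 47 to 300 and 176 in BRCA1-null cells. These were changes of 3.00 ± 0.190 (adjusted p = 0.000168) and 2.60 ± 0.259 (adjusted p = 0.00124) on the log2 scale, in groups that did not overlap. SNPH, which anchors mitochondria on microtubules, rose by 0.79 in both lines.

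Of 14 receptors that GASP proteins bind and sorting factors, 9 were tested. In entinostat 2 were called higher in BRCA1-null cells (22.2%, near the 20.5% of all genes), the scarce dopamine receptor DRD2 (0.169 against 1.03 CPM, 2.76 ± 0.973, adjusted p = 0.0491, edgeR) and BECN1 (0.41 ± 0.0671, adjusted p = 0.00111), a factor of autophagy. With entinostat the endosomal sorting factor HGS fell in both lines, by 0.24 and by 0.22 on the log2 scale.

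The genes whose pattern over the 8 libraries was most like that of ARMCX2, by the Euclidean distance between log2 CPM values centred on each gene's mean among 11822 genes, were COL6A2 (distance 1.64), COL6A1 (1.64), MMP2 (2.34), CYP2S1 (3.28) and EHF (4.58). COL6A2, a collagen VI chain, had 29 and 32 counts in BRCA1+ cells with DMSO and 24 and 23 with entinostat, against 6516 and 7889 (DMSO) and 7334 and 6102 (entinostat) in BRCA1-null cells. It was likewise low in all BRCA1+ and high in all BRCA1-null libraries, without the rise of ARMCX2 with entinostat. MMP2, a secreted gelatinase, had 16 and 15, 10 and 37, 2003 and 2467, and 2252 and 1794 counts in the same order. None of the 5 was among the 5 nearest by Pearson correlation in place of distance. No other family member was among them, and ARMCX2 was not among the 3 nearest to any other member. The distance is not scaled for the size of a gene's changes, and ARMCX2 was selected for the size of its line difference. By distance these absences were therefore fixed in advance, and nothing is read from them.

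The genes nearest to the other members lay at smaller distances. With an unscaled distance this goes with the smaller changes of these members, so distances are not compared between members. For ARMCX1 they were LAYN (0.384), CNTNAP1 (0.389) and VIM-AS1 (0.402), for ARMCX3 CLCN2 (0.113), SSR4 and ABCA2, for ARMCX5 RPL32 (0.254), CCT8 and ACTRT3, and for ARMCX6 MRPS23 (0.134), SLC43A2 and CHM. For GPRASP1 they were H6PD (0.455), EVL and PDLIM2, for GPRASP2 ALPK1 (0.319), the overlapping ARMCX5-GPRASP2 (0.328) and FGFR1, and for BHLHB9 RABGEF1 (0.143), GCNT7 and MKKS. LAYN was at 10.3, 20.7, 40.2 and 52.7 CPM in BRCA1+ control, BRCA1+ entinostat, BRCA1-null control and BRCA1-null entinostat, so it followed ARMCX1 in rising from group to group.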

How the data were processed

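Poly(A) RNA was sequenced in 8 libraries, 2 per group, and groups were taken from the sample labels. The authors deposited raw read counts per gene symbol, made with NGSUtils after alignment by TopHat to hg19. Handling of strand and shared reads is not given in the sources used here. Total counts were 31900158 to 53549893. Genes were filtered by filterByExpr (17714 of 25369 kept), scaled by TMM and fitted together with edgeR 4.0.16 in R 4.3.3 by the quasi-likelihood test with 4 residual degrees of freedom. Tests were two-sided with Benjamini-Hochberg adjustment over all tested genes at 0.05. ARMCX2 between lines is given as a ratio of summed counts per normalised library size, with an exact binomial interval for counting error, in place of a planned bound against the floor. The members and lists were chosen with earlier results of these data known. Named genes were all members and relatives, BRCA1, up to 4 called genes with the largest change per list and contrast, and the genes nearest to each member. Alternatives were DESeq2 1.42.0 and its size factors, upper-quartile factors, no filter or a mean of 1 CPM, a replicate block, only the groups compared, thinned counts, an added unadjusted p of 0.01 and each library left out. The scripts were tested on simulated data. Protein sequences were not used here. The values of 1 listed gene are not reported here.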

Additional observations from a re-analysis of the deposited data

How the results depend on the processing

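The number of genes called with 1 library omitted ranged from 5309 to 7387 for the line difference in DMSO, from 4529 to 6917 in entinostat, from 679 to 2414 for entinostat in BRCA1+ cells and from 512 to 1595 in BRCA1-null cells, and the number of members called from 0 (without BRCA1+ control replicate 2) to 2 and from 1 to 2 for entinostat in BRCA1+ and BRCA1-null cells. In BRCA1-null cells only the groups compared gave 693 genes and 1 member, and DESeq2 gave 1 member. For the interaction DESeq2 called 11 genes. Upper-quartile factors called 1753 of 2418 genes higher with entinostat in BRCA1+ cells (72.5%) against 1443 of 2505 (57.6%). With 1 library left out, fitted directions reversed for 5 values that were not called: ARMCX5 (-0.35 to 0.089, positive without BRCA1+ entinostat replicate 1 or BRCA1+ control replicate 2) and BHLHB9 (-0.11 to 0.0086) with entinostat in BRCA1+ cells, ARMCX3 (-0.028 to 0.081) and ARMCX6 (-0.083 to 0.044) in BRCA1-null cells, and the interaction of ARMCX6 (-0.0021 to 0.25). BHLHB9 was also at 0.0049 with upper-quartile factors. Of 499 values of members in the tested comparisons under alternatives, 460 kept their direction and side of the threshold, 31 lost a call, 1 gained it and 7 reversed without a call. All 135 values for the line difference in DMSO kept their direction. No ratio could be given for ARMCX2 in entinostat without BRCA1+ entinostat replicate 2, which left 0 counts in BRCA1+ cells. Where no cause is shown by the alternative's construction, the cause was not tested.

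The replicate numbers are shared by the groups, but only 2 pairs exist per comparison. Differences between replicates correlated between the groups across 10405 genes, with r of 0.718 between the BRCA1+ groups, 0.638 between the BRCA1-null groups and 0.234 to 0.298 between lines. With the replicate number as a block, 4319 genes were called with entinostat in BRCA1+ cells, 3641 in BRCA1-null cells and 1 for the interaction, and GPRASP2 was then called in BRCA1-null cells (adjusted p = 0.0429).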
